A study of Mus musculus with 8 samples.

Results

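The IL-1 family genes described here are 10 genes of the deposited expression table, taken by their gene names out of 34745 genes. They are the cytokines Il1a, Il1b, Il18 and Il33, the antagonist genes Il1rn and Il1f10, and the receptor genes Il1r1, Il1r2, Il1rap and Il1rl1. RNA sequencing of excised skin gave 8 libraries, 4 of NcstnΔKC mice and 4 of normal mice, all labelled male and killed at 16 weeks of age. NcstnΔKC mice carried floxed Ncstn alleles (Ncstn flx/flx) and Krt14 CreER+/-, a tamoxifen-inducible recombinase driven by a keratin promoter of basal keratinocytes. They took tamoxifen by gavage from 8 weeks of age, with a daily dose of 20 mg/kg on 5 days in a row and a dose every 10 days after that. For the normal mice the protocol gives the same genotype with corn oil in place of tamoxifen, whereas their genotype label reads wildtype. Nicastrin, the product of Ncstn, belongs to the γ-secretase complex, a protease that cleaves Notch receptors.

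IL-1α and IL-1β, the products of Il1a and Il1b, bind the receptor IL-1R1, which then recruits the accessory protein encoded by Il1rap and signals through MyD88. Il1rn encodes a receptor antagonist and Il1r2 a decoy receptor that binds IL-1 without signalling. IL-18 and IL-33 use receptors of their own, of which Il1rl1 encodes the IL-33 receptor ST2, also in a soluble form. Keratinocytes store IL-1α, IL-18 and IL-33, and myeloid cells are the classic source of IL-1β. In whole skin, a change in the number of cells of a type and a change in RNA per cell cannot be told apart.

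Il1a and Il1b lie side by side on chromosome 2 and were both higher in NcstnΔKC skin, so the 250 bases before the annotated start of each are shown first. The same stretch is shown for the 2 starts of Il1rl1, the receptor gene with the largest fold change, because a count over the whole gene does not separate transcripts from them. Sequences are from RefSeq on GRCm38.p6, read 5′ to 3′ on the strand of the gene, and capitals mark matches to TATAAA or to the AP-1 motif TGANTCA.
Il1a, chr2:129309973-129310222, minus strand: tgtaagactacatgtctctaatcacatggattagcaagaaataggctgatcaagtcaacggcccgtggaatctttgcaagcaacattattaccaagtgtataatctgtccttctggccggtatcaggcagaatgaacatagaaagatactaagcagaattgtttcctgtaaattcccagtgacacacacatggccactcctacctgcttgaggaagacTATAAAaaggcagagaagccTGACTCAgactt
Il1b, chr2:129371140-129371389, minus strand: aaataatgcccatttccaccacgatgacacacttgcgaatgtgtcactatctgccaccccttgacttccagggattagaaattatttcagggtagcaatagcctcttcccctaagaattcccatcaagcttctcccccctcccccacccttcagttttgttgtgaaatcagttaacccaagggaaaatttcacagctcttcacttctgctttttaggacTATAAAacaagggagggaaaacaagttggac
Il1rl1, upstream start, chr1:40429320-40429569, plus strand: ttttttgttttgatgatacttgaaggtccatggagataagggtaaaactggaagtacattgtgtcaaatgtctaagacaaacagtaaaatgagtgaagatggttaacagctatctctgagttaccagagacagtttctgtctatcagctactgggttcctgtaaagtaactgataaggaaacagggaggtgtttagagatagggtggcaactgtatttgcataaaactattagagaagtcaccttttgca
Il1rl1, downstream start, chr1:40439379-40439628, plus strand: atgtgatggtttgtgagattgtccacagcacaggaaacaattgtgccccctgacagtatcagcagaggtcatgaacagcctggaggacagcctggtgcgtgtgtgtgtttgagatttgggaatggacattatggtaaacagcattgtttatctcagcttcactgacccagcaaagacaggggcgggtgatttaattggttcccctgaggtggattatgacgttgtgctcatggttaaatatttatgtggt
Both cytokine genes held TATAAA, with its first base 32 bases before the start in Il1a and 31 in Il1b. Il1a also held TGANTCA, 12 bases before its start, and neither Il1rl1 stretch held a match to either motif. Both strands were searched, and these motifs occurred in 12.4% and 6.75% of 32851 such stretches of the genome. The STAT motif TTCNNNGAA occurred in 7.02% of them and the NF-kB motif in 7.25%, and neither in the 4 stretches shown. Over all 15 annotated starts of the 10 genes, 5 held TATAAA, 2 held TGANTCA, 1 held TTCNNNGAA and 1 the NF-kB motif. A match of letters is a description of the sequence and not a binding site.

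Total counts ran from 11881506 to 12893174 in NcstnΔKC libraries and from 5835422 to 8663753 in normal ones. Levels are given as CPM, counts set against the size and composition of each library, and differences as log2 fold changes of NcstnΔKC over normal with a standard error (SE), from edgeR's quasi-likelihood test with Benjamini-Hochberg adjustment over 15684 genes and a threshold of 0.05. Ncstn itself averaged 57.7 ± 6.86 CPM in NcstnΔKC libraries and 60.6 ± 1.54 CPM in normal ones (SD, n = 4 each), a log2 difference of -0.07 with an adjusted p of 0.663. The floxed exons cannot be read apart from the rest of the gene in these values, which therefore do not check the labels. Against the label, replicates 3 and 4 of both groups held 22304 to 37109 Xist counts, and the other 4 libraries 4 to 9. NcstnΔKC replicate 1 stood apart from the other NcstnΔKC libraries, over all tested genes and in several genes below. Its Spearman correlations with the other NcstnΔKC libraries were 0.930 to 0.935, against 0.976 to 0.991 among those. Markers of basal keratinocytes were abundant in all libraries, with summed levels of 10010 to 14204 CPM in NcstnΔKC and 5441 to 6855 CPM in normal skin. Markers of skeletal muscle were present too, at 367 to 4728 CPM in NcstnΔKC and 5118 to 53483 CPM in normal skin.

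All 10 genes passed the filter on low counts, and 8 differed between the groups, against 44.1% of all tested genes. Of these, 7 were higher in NcstnΔKC skin, where 21.4% of all genes were higher, and 1 was lower, where 22.7% were. The 4 cytokine genes and the receptor genes Il1r1, Il1r2 and Il1rl1 rose, Il1f10 fell, and Il1rn and Il1rap did not pass. The median log2 fold change was 1.17 over these 10 and -0.02 over all tested genes. The groups did not overlap for 5 of the 10 genes, 4 higher and 1 lower. Of all tested genes 41.6% had such groups, 20.9% higher and 20.7% lower. Without NcstnΔKC replicate 1 the count was 6 higher and 1 lower, where 24.4% and 26% of all genes were. In the 4 libraries with Xist it was 8 and 1, where 26.3% and 25.4% of all genes were. In the 4 without Xist it was 0, where edgeR called 4 of 15668 genes. There 5 of the 10 and 3921 of all genes had an unadjusted p under 0.05.

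**Figure D1:**
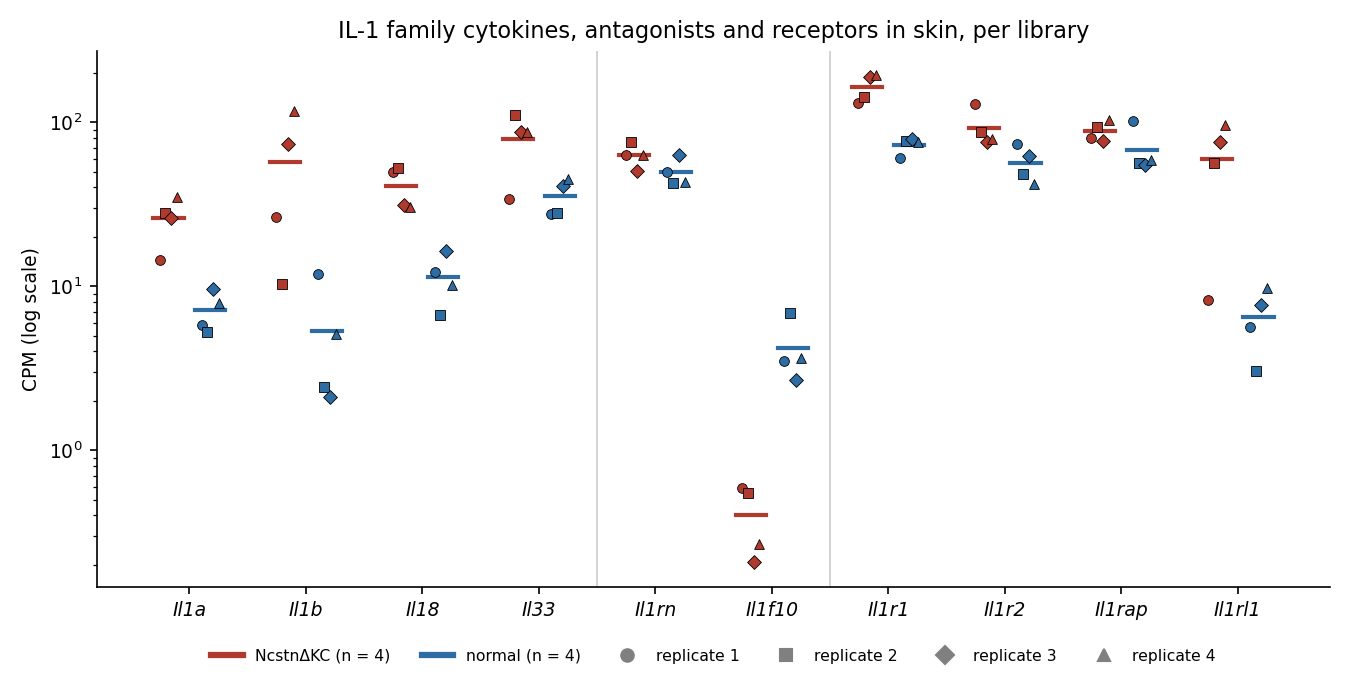
Level of each of the 10 genes in CPM (log scale) in the 8 libraries, with NcstnΔKC in red on the left of each pair and normal in blue; bars are group means and symbols mark the replicate. Il1b and Il1rl1 spread widest among NcstnΔKC libraries (10.3 to 117 CPM and 8.22 to 96.5 CPM), and Il1f10 is the single gene whose NcstnΔKC libraries all lie below the normal ones.

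Among the cytokines, Il1b had the largest change. Its gene (ENSMUSG00000027398, mm10 chromosome 2, 129364570 to 129371139, minus strand) had 26.5, 10.3, 73.5 and 117 CPM in NcstnΔKC replicates 1 to 4. The normal replicates 1 to 4 had 11.8, 2.42, 2.12 and 5.08 CPM. Replicates 3 and 4 were far above replicates 1 and 2 in the NcstnΔKC group, and NcstnΔKC replicate 2 lay below normal replicate 1, so the groups overlapped. Il1b rose by 3.39 ± 0.82 on the log2 scale (SE, adjusted p = 0.01), with a 95% interval of 1.54 to 5.25. Single libraries moved this value, to 2.78 without NcstnΔKC replicate 4 and to 4.20 without normal replicate 1, and Il1b passed in both. The log2 fold change was 4.75 in the libraries with Xist and 1.35 in those without it. A test of that difference over all 8 libraries gave an unadjusted p of 0.0163 in edgeR's quasi-likelihood test, and an adjusted p of 0.827 over all genes. In that test edgeR called 0 of 15684 genes, and 917 had an unadjusted p under 0.05. No other tool was run for it.

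Il1a (ENSMUSG00000027399, chromosome 2, 129299610 to 129309972, minus strand), an alarmin that is active without cleavage, had 14.3, 28.0, 26.1 and 35.1 CPM in NcstnΔKC replicates 1 to 4. The normal replicates had 5.77, 5.24, 9.60 and 7.95 CPM. The lowest NcstnΔKC library was above the highest normal one, and Il1a rose by 1.85 ± 0.31 (SE, adjusted p = 0.00182). The libraries with and without Xist gave 1.84 and 1.94. Il18 (ENSMUSG00000039217, chromosome 9, 50575273 to 50581837, plus strand), whose product is made as a precursor and cut by caspase-1, had 49.5, 52.8, 31.2 and 30.3 CPM in NcstnΔKC replicates 1 to 4. The normal libraries had 12.1, 6.65, 16.4 and 10.2 CPM. The groups did not overlap, and Il18 rose by 1.85 ± 0.30 (SE, adjusted p = 0.00173). Here NcstnΔKC replicates 1 and 2 were the higher ones, the reverse of Il1b. The log2 fold change was 1.26 with Xist and 2.44 without, a difference with an unadjusted p of 0.0353 and an adjusted p of 0.836 (edgeR, all 8 libraries). The deposited position of Il18 leaves out upstream exons, since the gene starts at 50554827 in GENCODE M21.

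Il33 (ENSMUSG00000024810, chromosome 19, 29925114 to 29960718, plus strand) encodes a nuclear alarmin of epithelial and endothelial cells. It had 33.9, 109.9, 87.3 and 86.6 CPM in NcstnΔKC replicates 1 to 4, against 27.5, 28.0, 40.9 and 45.1 CPM in normal replicates 1 to 4. NcstnΔKC replicate 1 lay within the normal range and the other 3 above it. Il33 rose by 1.16 ± 0.34 (SE, adjusted p = 0.0215). The call ended without NcstnΔKC replicate 2 (0.98, adjusted p = 0.0565), without NcstnΔKC replicate 3 (1.13, adjusted p = 0.0503) and with limma-voom (1.06, adjusted p = 0.0524), and without NcstnΔKC replicate 1 the value was 1.42. Its adjusted p ran from 0.00101 to 0.814 over 23 alternatives.

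Neither antagonist gene passed as higher. Il1rn (ENSMUSG00000026981, chromosome 2, 24336853 to 24351494, plus strand), whose product occupies IL-1R1 without signalling, had 63.4, 75.9, 50.1 and 63.4 CPM in NcstnΔKC replicates 1 to 4. The normal replicates had 49.8, 42.5, 62.7 and 43.0 CPM. These ranges overlapped, the log2 fold change was 0.35 ± 0.18 (SE, adjusted p = 0.131), and its 95% interval ran from -0.04 to 0.75. Leaving out normal replicate 3 brought Il1rn past the threshold (0.55, adjusted p = 0.0375), and its adjusted p ran from 0.0119 to 0.597 over all alternatives. GENCODE M21 lists 6 transcripts of Il1rn, including secreted and intracellular forms, which a count over the gene adds together.

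Il1f10 (ENSMUSG00000046845, chromosome 2, 24291196 to 24293820, plus strand) encodes IL-38, described in human cells as an inhibitor within the family. It was the single gene of the 10 that fell. NcstnΔKC replicates 1 to 4 held 7, 8, 3 and 4 counts of it, against 23, 34, 19 and 28 counts in normal replicates 1 to 4, although the NcstnΔKC libraries were the deeper ones. In CPM the NcstnΔKC libraries had 0.587, 0.547, 0.207 and 0.269, and the normal ones 3.49, 6.85, 2.68 and 3.65. The groups did not overlap, and the log2 fold change was -3.33 ± 0.45 (SE, adjusted p = 0.000707), a level 10.1-fold lower in NcstnΔKC skin. Il1f10 lies 7769 bases from Il36rn on one side and 43032 bases from Il1rn on the other, in the cluster that also holds the IL-36 genes. These neighbours went the other way: Il36a (4.84), Il36b (3.35), Il36g (2.57) and Il36rn (1.36), the antagonist gene of that group, were all higher in NcstnΔKC skin, and by basal keratinocyte genes, a scale described below, 3 of the 4 were.

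Of the IL-1 receptor genes, Il1r1 (ENSMUSG00000026072, chromosome 1, 40225080 to 40317257, plus strand), the signalling receptor, had the smallest SE of the 10 genes. It had 131, 142, 188 and 193.5 CPM in NcstnΔKC replicates 1 to 4 and 60.7, 76.2, 78.9 and 75.6 CPM in normal replicates 1 to 4. The groups did not overlap, and Il1r1 rose by 1.17 ± 0.16 (SE, adjusted p = 0.000839). Il1r2 (ENSMUSG00000026073, chromosome 1, 40074079 to 40125231, plus strand), the decoy, had 129, 87.0, 75.3 and 78.7 CPM in NcstnΔKC replicates 1 to 4 and 73.8, 48.0, 62.1 and 42.2 CPM in normal replicates. The lowest NcstnΔKC library lay just above the highest normal one, and Il1r2 rose by 0.71 ± 0.23 (SE, adjusted p = 0.0325). That call was a narrow one and ended without NcstnΔKC replicate 1 (0.51), without NcstnΔKC replicate 2 (0.74), without normal replicate 2 (0.69) and without normal replicate 4 (0.64), with an adjusted p of 0.0529 to 0.0638 in these and of 0.00504 to 0.373 over all alternatives. Il1rap (ENSMUSG00000022514, chromosome 16, 26581704 to 26730117, plus strand), the accessory protein shared by the IL-1, IL-33 and IL-36 receptors, did not pass. Its log2 fold change was 0.38 ± 0.22 (SE), with a 95% interval of -0.11 to 0.87 and an adjusted p of 0.184. It had 80.2, 93.0, 76.5 and 103 CPM in NcstnΔKC replicates 1 to 4, against 101.6, 56.0, 54.8 and 58.5 CPM in normal replicates 1 to 4. Normal replicate 1 was far above the other 3 normal libraries, and leaving it out gave a log2 fold change of 0.72 (adjusted p = 0.00641, the lowest of the alternatives, which reached 0.83).

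Il1rl1 (ENSMUSG00000026069, chromosome 1, 40429570 to 40465415, plus strand), the IL-33 receptor gene, had the largest fold change of the 4 receptor genes. It had 8.22, 56.2, 76.0 and 96.5 CPM in NcstnΔKC replicates 1 to 4, against 5.62, 3.02, 7.62 and 9.77 CPM in normal replicates 1 to 4. NcstnΔKC replicate 1 lay within the normal range, and the other 3 libraries were at least 56.2 CPM. Il1rl1 rose by 3.17 ± 0.67 (SE, adjusted p = 0.0057), and by 3.53 without NcstnΔKC replicate 1. Limma-voom did not call it (2.80, adjusted p = 0.0556), and its adjusted p ran from 1.17e-06 to 0.166 over all alternatives. The libraries with and without Xist gave 3.34 and 2.89. GENCODE M21 lists 5 transcripts, so the membrane-bound and soluble forms of ST2 were not separated. The next gene on the chromosome, Il18r1, begins after 136 bases. It encodes the ligand-binding IL-18 receptor chain and did not pass (0.50, adjusted p = 0.157), whereas Il18rap, the accessory chain beyond it, rose by 2.92 ± 0.35 (SE, adjusted p = 0.000436).

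**Figure D2:**
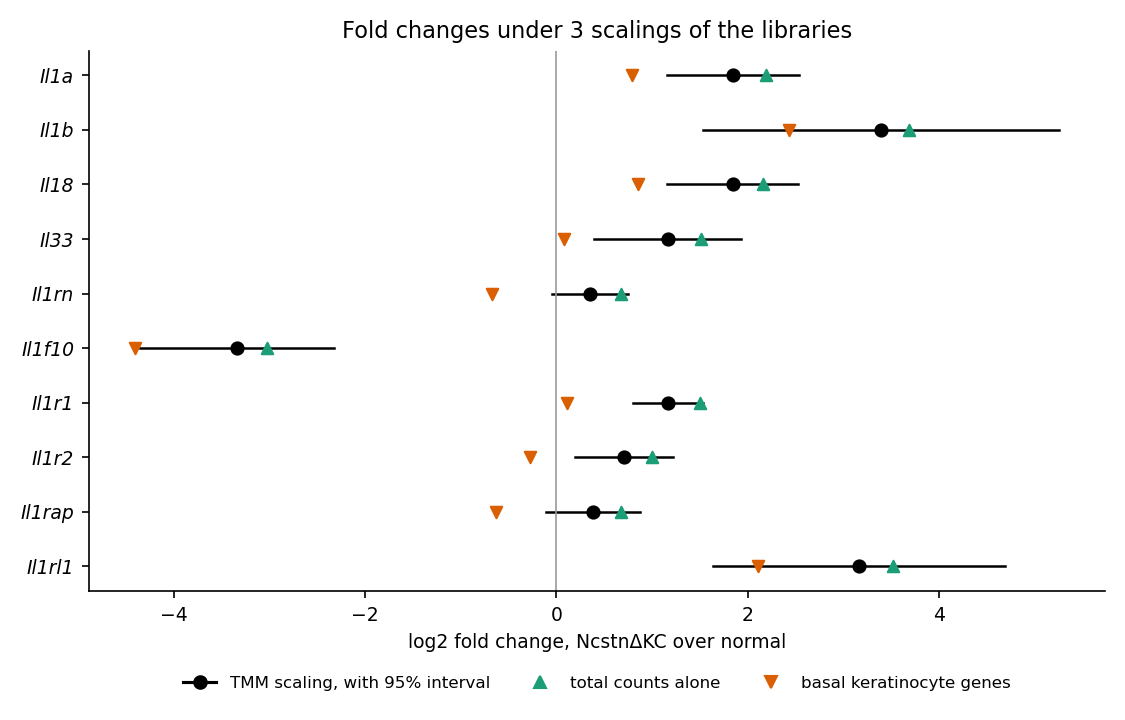
Log2 fold change of NcstnΔKC over normal for the 10 genes with the 95% interval of the main scaling (black), and under scaling by total counts (green) or by 6 basal keratinocyte genes (orange). The orange points of Il1rn, Il1r2 and Il1rap lie below 0 (-0.68, -0.27 and -0.63), and those of Il33 and Il1r1 near it (0.08 and 0.11), while Il1a, Il1b, Il18 and Il1rl1 stay above 0 under all 3.

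The scale matters for the smaller changes. Scaled by total counts, the median of all tested genes was 0.29, and 8 of the 10 genes were higher, where 33.9% of all genes were, and 1 lower, where 14.2% were. Scaled by 6 basal keratinocyte genes, that median was -1.06, with 2.75% of all genes higher and 66% lower. On that scale Il1a (0.80), Il1b (2.43), Il18 (0.85) and Il1rl1 (2.11) were higher, and Il1rn (-0.68), Il1rap (-0.63) and Il1f10 (-4.41) lower, a smaller share than that of all genes. Il33 (0.08), Il1r1 (0.11) and Il1r2 (-0.27) did not pass. Relative to the median of all genes, these 3 were at 1.14, 1.16 and 0.78. Taking off that median largely undoes the scaling, so these values restate the main ones (1.16, 1.17 and 0.71) and are not separate support.

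Levels between genes can be compared per length with the authors' FPKM, which divide the fragments of a gene by its length and by the library's size. The order then depends on these lengths, from 538 bases for Il1f10 to 15070 for Il1rap. That of Il18 was 714 bases, and its deposited position leaves out upstream exons. By mean CPM in NcstnΔKC skin, Il1r1 (164) was highest of the 10 and Il18 was at 41.0. Per length, Il18 led in NcstnΔKC skin with 63.6 ± 17.6 FPKM, then Il1r2 with 43.4 ± 8.21 and Il1b with 27.4 ± 24.1 FPKM (SD, n = 4). In normal skin Il1r2 led with 21.5 ± 6.51 FPKM, ahead of Il18 with 14.1 ± 4.74 FPKM, while Il1b (2.12 ± 1.94) and Il1rl1 (0.524 ± 0.236) were last (SD, n = 4). Il1f10 was at 0.823 ± 0.369 FPKM in NcstnΔKC skin, the lowest of the 10, and at 6.86 ± 2.84 FPKM in normal skin, where it ranked below Il1r2 and Il18. Each gene overlapped in range with the next one in this order, in both groups. Among NcstnΔKC libraries the highest CPM was 11.7 times the lowest for Il1rl1 and 11.4 times for Il1b, but 1.35 to 3.24 times for the other 8 genes.

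Ratios of 2 genes within a library do not depend on how libraries are scaled. A set of 4 such ratios was tested by permuting the 8 libraries in all 70 ways (exact, two-sided), which cannot give a p below 0.0286, and p-values were adjusted over the 4. The FPKM of Il1b were 1.44, 0.468, 5.06 and 6.37 times those of its antagonist gene Il1rn in NcstnΔKC replicates 1 to 4, against 0.819, 0.196, 0.116 and 0.407 times in normal replicates 1 to 4. By FPKM, Il1b exceeded Il1rn in 3 of 4 NcstnΔKC libraries and in 0 of 4 normal ones. That depends on the lengths behind the FPKM, 2352 bases for Il1b and 8102 for Il1rn. In counts the log2 ratios were -1.26, -2.88, 0.55 and 0.89 in NcstnΔKC replicates 1 to 4, above 0 in replicates 3 and 4 alone. The groups overlapped, and the log2 ratio of counts was higher by 2.84 (exact permutation p = 0.0571, adjusted p = 0.0762), which does not pass. For Il1a over Il1rn the values were 0.928, 1.51, 2.13 and 2.27 in NcstnΔKC and 0.476, 0.506, 0.629 and 0.759 in normal libraries. These did not overlap, and the log2 ratio was higher by 1.46 in NcstnΔKC skin (exact permutation p = 0.0286, adjusted p = 0.0571), which does not pass after adjustment. Where only 2 of the 4 ratios reach the lowest p, as here, the adjusted p cannot be lower, however large the difference.

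Il1rl1 over Il33 gave 0.115, 0.243, 0.414 and 0.530 in NcstnΔKC and 0.0971, 0.0513, 0.0885 and 0.103 in normal libraries. The groups did not overlap and the log2 ratio was higher by 1.75 (exact permutation p = 0.0286, adjusted p = 0.0571). This too is the lowest adjusted p that the test could give here, so it could not pass. The decoy to receptor ratio, Il1r2 over Il1r1, was 4.11, 2.56, 1.68 and 1.70 in NcstnΔKC and 5.09, 2.64, 3.30 and 2.34 in normal libraries. Its log2 difference of -0.45 was within the spread between replicates (exact permutation p = 0.286, adjusted p = 0.286).

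**Figure D3:**
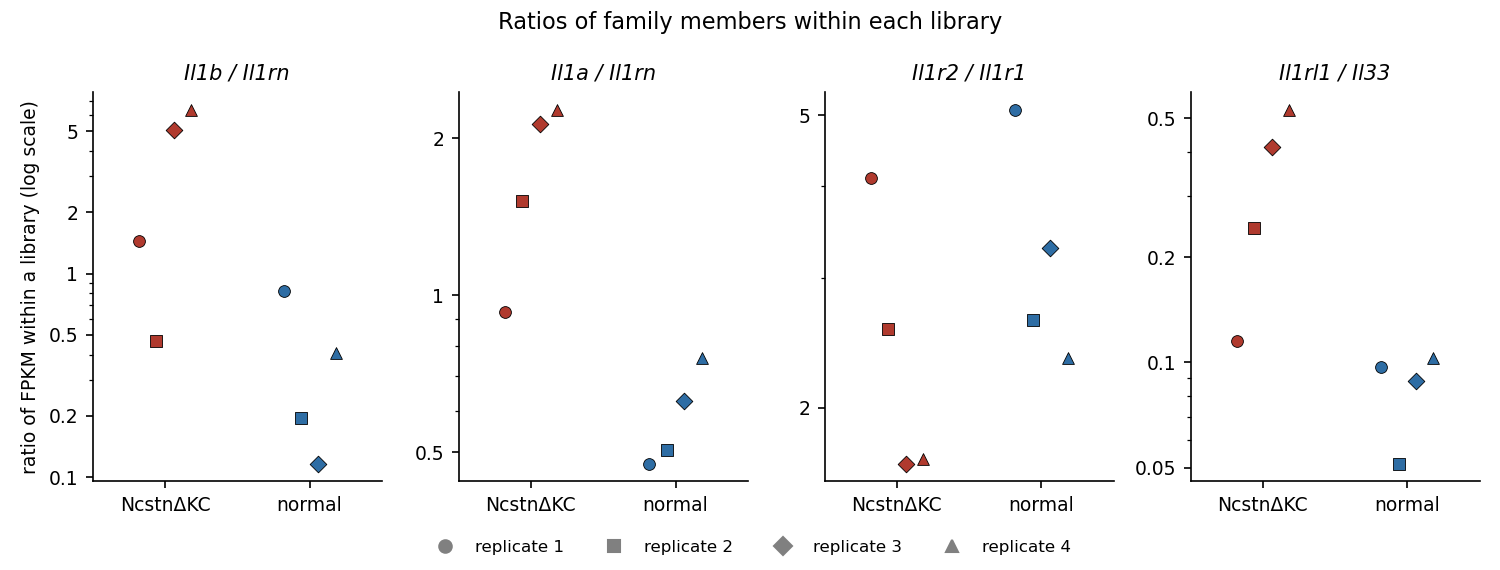
Ratio of the FPKM of 2 genes within each library (log scale), NcstnΔKC in red on the left and normal in blue, with symbols for replicates. The groups are apart for Il1a over Il1rn and Il1rl1 over Il33, and overlap for Il1b over Il1rn and Il1r2 over Il1r1.

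Some or all tested markers of neutrophils, macrophages and mast cells rose in NcstnΔKC skin, and those of T cells did not pass. Over all tested genes 21.4% rose, 33.9% by total counts and 24.4% without NcstnΔKC replicate 1. By basal keratinocyte genes 2.75% of all genes rose and 66% fell. Summed markers of neutrophils, which carry Il1b and Il1r2 transcripts, were at 31.5, 82.4, 146 and 202 CPM in NcstnΔKC replicates 1 to 4 and at 2.89 to 8.60 CPM in normal libraries. All 5 tested of 7 neutrophil markers rose, among them Cxcr2 (5.80 ± 0.54), a receptor for neutrophil chemokines. Ly6g, which was not tested, was at 0 in all normal libraries. At such low levels in normal skin a marker can pass the filter through the NcstnΔKC group alone. The count of 5 may therefore be partly set by the filter. Summed macrophage and monocyte markers were at 457, 1872, 2188 and 2441 CPM in NcstnΔKC replicates 1 to 4 and at 384 to 798 CPM in normal libraries, with 2 of 6 higher (5 by total counts, 6 without NcstnΔKC replicate 1). Mast cells, which carry ST2, had summed markers at 95.9, 361, 489 and 507 CPM in NcstnΔKC replicates 1 to 4 and at 72.4 to 144 CPM in normal libraries, with 4 of 6 tested of 7 higher (5 by total counts, 1 by basal keratinocyte genes, 7 of 7 without NcstnΔKC replicate 1). Fcer1a, a chain of the mast cell IgE receptor, had 11, 142, 233 and 198 counts in NcstnΔKC replicates 1 to 4 and 0 or 1 in normal libraries. It was not tested with all 8 libraries. Without NcstnΔKC replicate 1 it is among the 7, but there it passed the filter through the NcstnΔKC group alone, so its call is not separate support. T cell markers were at 16.8 to 45.4 CPM in NcstnΔKC and 12.5 to 37.9 CPM in normal libraries, and 0 of 5 passed in edgeR's test, 1 with an unadjusted p under 0.05 (2 were higher by total counts and 2 lower by basal keratinocyte genes). NcstnΔKC replicate 1 was lowest of its group in neutrophil, macrophage and mast cell markers, as it was for Il1a, Il33, Il1r1 and Il1rl1. That library was also lowest of its group in summed basal keratinocyte (10010 CPM) and fibroblast markers (3460 CPM). In suprabasal (7914 CPM), endothelial (262 CPM), adipocyte (163 CPM) and muscle markers (4728 CPM) it was highest. Il1b was lowest in NcstnΔKC replicate 2 instead, and Il1r2 was highest in NcstnΔKC replicate 1. The part of these cell types in the changes of Il1b, Il1r2, Il33 and Il1rl1 was not tested.

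**Figure D4:**
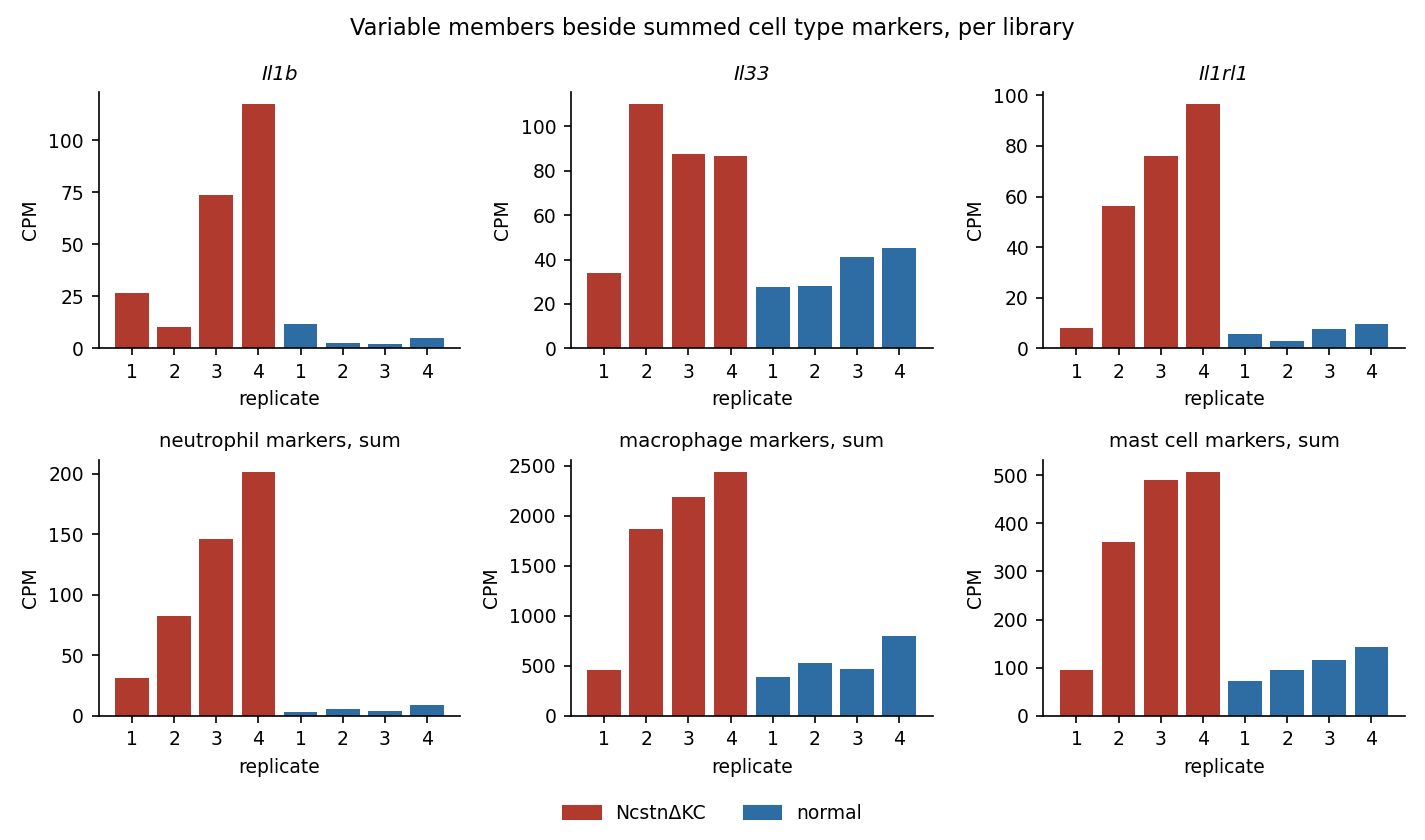
CPM of Il1b, Il33 and Il1rl1 (top) and summed CPM of the marker genes of neutrophils, macrophages and monocytes, and mast cells (bottom) in each library, NcstnΔKC in red and normal in blue. NcstnΔKC replicate 1 has the lowest red bar in all panels but that of Il1b, where replicate 2 is lowest with 10.3 CPM.

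Markers of the tissue's own cells were mixed in direction. Over all tested genes 21.4% rose and 22.7% fell. These shares were 33.9% and 14.2% by total counts, and 2.75% and 66% on the basal keratinocyte scale. In the libraries with Xist they were 26.3% and 25.4%. Basal keratinocyte markers rose in 5 of 6 cases (1 higher and 1 lower of 6 when these genes set the scale), and suprabasal ones fell in 3 of 6 (2 higher and 3 lower by total counts, 0 and 4 on the basal keratinocyte scale), with summed levels of 3336 to 7914 CPM in NcstnΔKC and 6586 to 14549 CPM in normal skin. Fibroblast markers fell in 2 of 6 cases (4 higher and 2 lower in the libraries with Xist, 1 and 2 by total counts, 0 and 5 on the basal keratinocyte scale), at 3460 to 10081 CPM in NcstnΔKC and 3899 to 25978 CPM in normal skin. Endothelial markers fell in 2 of 5 cases (1 higher and 1 lower by total counts, 0 and 5 on the basal keratinocyte scale), at 177 to 262 CPM in NcstnΔKC and 229 to 296 CPM in normal skin. Adipocyte markers fell in 4 of 5 cases, at 23.6 to 163 CPM in NcstnΔKC and 218 to 643 CPM in normal skin, and muscle markers in 5 of 5. Their part in the changes of the 10 genes was not tested either.

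The genes most like each of these in pattern were found by the root mean square difference of log2 CPM over the 8 libraries, each gene centred on its mean, among 12354 other genes of at least 5 CPM. For Il1b the nearest was Il18rap, at a difference of 0.81, followed by Ramp3 and Ifitm1, while Il1rl1 lay nearest to Ms4a4a (0.34), Cd209e (0.36) and Ccl9 (0.37). Il1a lay nearest to Spp1 (0.22), Il18 to Nod2 (0.19), and Il33 to Slc28a2 (0.20).

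Genes downstream of the receptors were examined next. Of 21 genes from MyD88 to the IκB kinases, 7 rose and 2 fell, with a median log2 fold change of 0.30, so that the 9 that passed were about the share of all tested genes that did (44.1%). Myd88, the adaptor of these receptors, rose by 1.41 ± 0.20 (SE, adjusted p = 0.000917) and Chuk, an IκB kinase, by 0.86 ± 0.12. Tab2, which couples TRAF6 to the kinase TAK1, had -0.83 ± 0.15, and Tollip, a negative regulator, rose by 0.84 ± 0.18. The other gene that fell was Peli3, a Pellino ubiquitin ligase, with -1.03 ± 0.28. The split was 12 higher and 1 lower by total counts, where 33.9% of all genes were higher. By basal keratinocyte genes it was 0 higher and 13 lower, again about the share of all genes that were lower (66%), and Myd88 (0.36) did not pass and Chuk (-0.16) and Tollip (-0.16) were below 0. Of 5 tested of 7 other receptor and binding protein genes, 3 rose (4 and 0 lower by total counts, 1 and 2 lower by basal keratinocyte genes), with a median of 0.57. Il18bp, which neutralises IL-18, rose by 1.04 ± 0.19, but was at 0.01 by basal keratinocyte genes. Il1rl2, the IL-36 receptor, rose by 0.57 ± 0.19 and was at -0.44 on that scale.

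Genes of cytokine release and cutting, which include inflammasome sensors and an adaptor beside enzymes, were mixed. Of these, 6 of 17 tested of 21 were higher and 2 lower, with a median of 0.57. The 8 that passed were near the 44.1% of all tested genes. By total counts 10 were higher and 1 lower, by basal keratinocyte genes 1 and 6 (66% of all genes were lower on that scale), without NcstnΔKC replicate 1 11 and 2, and in the libraries with Xist 10 of 18 and 2. Of all genes 33.9% were higher by total counts, 24.4% without that replicate and 26.3% in the libraries with Xist. Nlrp3, an inflammasome sensor, rose by 3.36 ± 0.77 (SE, adjusted p = 0.00779), with 6.88, 3.21, 15.9 and 26.2 CPM in NcstnΔKC replicates 1 to 4 and 0.456 to 2.82 CPM in normal libraries. Nlrp3 and Il1b had the same order of NcstnΔKC libraries, with replicate 4 highest and replicate 2 lowest. How many other genes have this order was not counted, and a link between Nlrp3 and Il1b was not tested. Capn1, a calpain, the protease family that cuts the IL-1α precursor, rose by 0.82 ± 0.12, though it was at -0.21 by basal keratinocyte genes. Nlrp1b, another sensor, had -2.48 ± 0.59, and Pycard, the inflammasome adaptor, -1.14 ± 0.29. Casp1, the protease that cuts the IL-1β and IL-18 precursors, had 0.57 ± 0.22 and did not pass (adjusted p = 0.0598).

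Among 17 tested of 20 genes that respond to IL-1, 13 rose and 1 fell, with a median of 2.23, and by basal keratinocyte genes 8 rose and 2 fell. Over all tested genes 21.4% rose and 22.7% fell, and by basal keratinocyte genes 2.75% and 66%. The gene of this list that fell was Tnip1 (-0.58 ± 0.16), which restrains NF-kB signalling. By total counts 0 of the list fell, where 14.2% of all genes did. Icam1, an adhesion molecule for leukocytes, had 97.9 ± 12.3 CPM in NcstnΔKC and 20.8 ± 3.71 CPM in normal skin (SD, n = 4 each) and rose by 2.23 ± 0.17. Lcn2, an iron-binding antimicrobial protein, rose by 3.56 ± 0.35, Bcl3, a nuclear IκB protein, by 2.72 ± 0.39, and Ptgs2, the inducible cyclooxygenase, by 3.35 ± 0.51. Other signals than IL-1 also induce these genes. Of 7 tested of 11 genes linked to the IL-33 response, 3 rose and 1 fell (2 and 2 by basal keratinocyte genes), with a median of 1.37. Thus 4 of these 7 passed, against 44.1% of all tested genes. In the libraries with Xist it was 7 higher and 1 lower of 9, with a median of 2.24, where 26.3% and 25.4% of all genes were. Il13 and Ccl17, not tested with all 8 libraries, entered the test there and are among the 7. In the libraries without Xist 0 of 7 passed, with a median of 0.06, where edgeR called 4 of 15668 genes. Calca rose by 4.84 ± 0.73, Il4 by 4.03 ± 0.83 and Areg, an epidermal growth factor receptor ligand, by 1.37 ± 0.49, which was 0.30 by basal keratinocyte genes. Gata3, a transcription factor of type 2 lymphocytes that keratinocytes also express, had -1.01 ± 0.17.

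**Figure D5:**
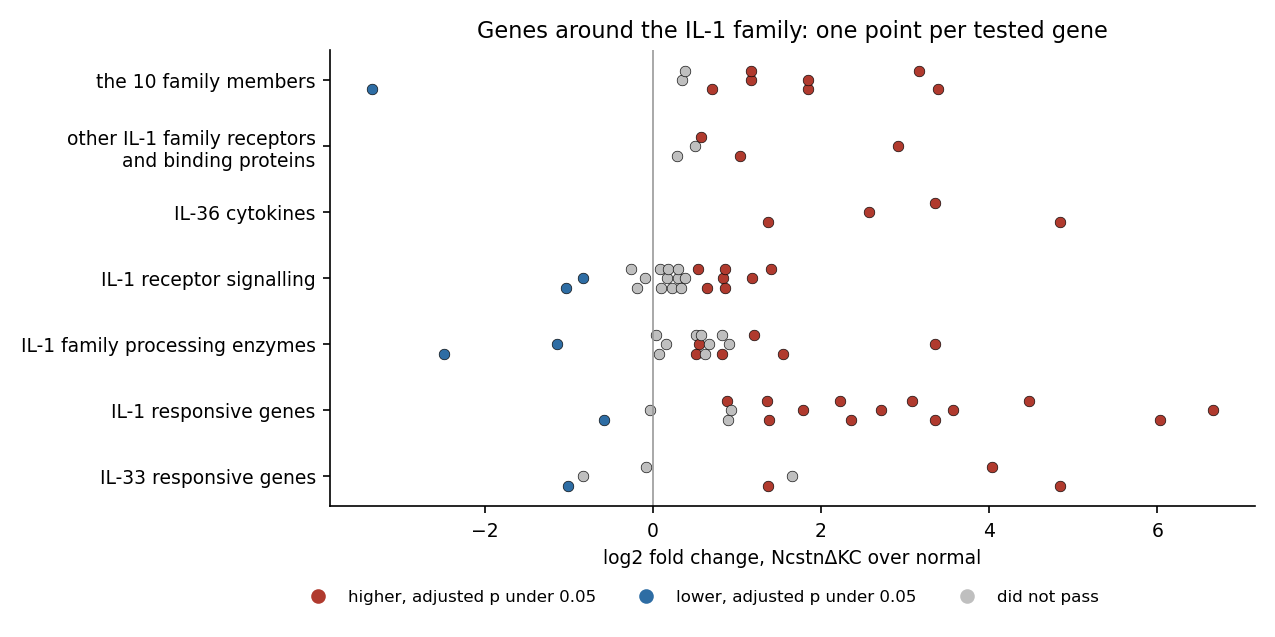
Log2 fold change of NcstnΔKC over normal for each tested gene of the family and of the lists around it, coloured by whether it passed as higher (red) or lower (blue) or did not pass (grey). Signalling genes sit close to 0 with a median of 0.30, and IL-1 responsive genes reach further right with a median of 2.23.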

How the data were processed

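RNA sequencing of whole skin gave 8 libraries. Tools named in the submitters' processing notes are TopHat2 2.0.9, TopHat and HTSeq, and the builds are mm10 and hg38, with no role or order. The annotation release, strand setting and treatment of reads that map to several places are not given in the sources used here. The authors deposited raw counts per gene and FPKM, per the file headers.

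Groups came from the labels. Genes were filtered with filterByExpr, scaled by TMM and tested with edgeR 4.0.16 in R 4.3.3 (quasi-likelihood, robust, two-sided) over the whole table. The common biological coefficient of variation was 0.315. Ratios used counts with 0.5 added. Alternatives used DESeq2 1.42.0, limma 3.58.1, and FPKM with 1 added before the log2. Tables and figures used Python 3.11.15, scipy 1.17.1 and matplotlib 3.10.9. The fit was tested on simulated counts. Thinning all libraries to 5835422 counts left 8 of the 10 genes called, and 42.9% of all genes. Since the labels do not state that each library is a separate mouse, p-values measure the spread between libraries, which may be technical.

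The 10 genes, the lists and the tests were chosen with earlier results of these data known. Named genes are the 10, and in each list mainly the 4 with the lowest p. One gene that this rule takes is not reported here. Other list genes (Pycard, Casp1, Peli3, Tnip1, Cxcr2 and Fcer1a, and Il18r1 as a neighbour) were named after their values were seen. Listed symbols were matched by synonym where needed, and for a symbol on several rows the longest locus was taken. Mcpt4 and Cma1 stand in both the processing and the mast cell list. Strand was not stated, so reads of a gene and an overlapping antisense gene cannot be told apart. Those overlapping Il1a, Il1b, Il1r2 and Il1rap had 0 to 34 counts per library. Reads shared with related sequences were not examined. Replicate numbers were not taken as pairs, since correlations of same-numbered deviations were -0.01, -0.02, -0.01 and 0.22.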

Additional observations from a re-analysis of the deposited data

Results flagged for a closer look

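Of 20 groups of 4 libraries, 2 for each of the 10 genes, 1 held a library far from the others, and chance gives about that many. Normal replicate 1 had 101.6 CPM of Il1rap, whereas the other 3 normal libraries had 54.8 to 58.5 CPM. The 4 NcstnΔKC libraries had 76.5 to 103 CPM. No gene of the 10 had a fold change that differed between libraries with and without Xist after adjustment over all genes. That test called 0 of 15684 genes, so the lack of a call says little about the 10. Il1b and Il18 had an unadjusted p of 0.0163 and 0.0353 in it (edgeR), and 917 of all genes had one under 0.05.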

How the results depend on the processing

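Depth limited Il1f10 most, with 3 to 8 counts per NcstnΔKC library. Over 23 alternatives the directions of Il1a, Il1b, Il1f10, Il18, Il33, Il1r1 and Il1rl1 held. For Il33 (0.08, adjusted p = 0.814) and Il1r1 (0.11, adjusted p = 0.668) the value by basal keratinocyte genes was near 0 in edgeR's test. Scaling by basal keratinocyte genes turned Il1rn to -0.68, Il1r2 to -0.27 and Il1rap to -0.63, and called 10785 genes in all. In the 4 libraries without Xist, 2 in each group, edgeR called 0 of the 10 genes and 4 of all genes, where 5 and 3921 had an unadjusted p under 0.05. With the Xist cutoff of 1 CPM first listed, normal replicates 1 and 2 with 9 and 8 counts would have counted as having Xist, so 100 CPM was used. That cutoff, thinning to 5835422 counts per library and Xist as a term were chosen after seeing the data. Thinning and the term each called 8 of the 10, and 42.9% and 43.8% of all genes. Leaving out each library gave 6 to 9 of the 10, and 5619 to 7994 of all genes. The cause of these changes was not tested.

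With the replicate number as a block, 8 of the 10 genes and 5981 of all genes were called. Same-numbered libraries correlated at -0.02 to 0.22 in their deviations, so the numbers were not taken as pairs. A filter of 1 CPM in 4 libraries kept the same number of genes, 15684. Limma-voom called 6 of the 10, log2 FPKM 10, and the Wald test of DESeq2 8. Of all genes these called 42.7%, 47.6% and 47.8%. Leaving out each library moved the log2 ratio of Il1b to Il1rn between 2.32 and 3.57, of Il1a to Il1rn between 1.30 and 1.73, of Il1rl1 to Il33 between 1.45 and 2.18, and of Il1r2 to Il1r1 between -0.72 and -0.22. With 3 libraries in a group the exact test could not pass.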
